A study of Mus musculus with 8 samples.

Results

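The ERK and p38 mitogen-activated protein (MAP) kinase pathway was followed in limb muscle of *Eif6*+/- mice through 8 genes, *Braf*, *Map2k1*, *Map2k2*, *Map2k3*, *Map2k6*, *Mapk3*, *Mapk12* and *Mapk14*. Their probes were all probes on the array, controls left out, whose RefSeq accession belonged to one of these genes, which gave 12 of 55681 probes and 8 of 20660 named genes. *Braf*, *Map2k2*, *Mapk3* and *Mapk14* had 2 probes each, and the other four had 1 each. *Eif6* encodes eukaryotic initiation factor 6, which holds the large ribosomal subunit apart from the small subunit, and the study asked what a lower dose of this factor does in skeletal muscle. Gastrocnemius and tibialis anterior (TA) of *Eif6*+/- and WT mice were compared on 8 two-colour Agilent arrays, 4 per muscle. By the methods the mice were male C57BL6 littermates of 8 to 16 weeks, and each *Eif6*+/- mouse was paired at random with an age-matched WT mouse. By the labels the *Eif6*+/- RNA carried the dye Cy5 and the WT RNA the dye Cy3 on all 8 arrays, so that in each muscle the genotype and the dye cannot be told apart. The arrays of gastrocnemius filled one row of a single slide and those of TA the other, so that muscle and slide row likewise cannot be told apart. The labels do not say whether the muscles of one number came from the same mouse, and each adjusted p below measures the spread over arrays. Per array and channel, 38.7% to 48.6% of probes were well above background.

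In the ERK arm of the pathway, growth factor receptors load Ras with GTP, and Ras brings Raf kinases such as the *Braf* product to the membrane. Raf kinases phosphorylate MEK1 and MEK2, the products of *Map2k1* and *Map2k2*, and these activate ERK kinases such as ERK1, the product of *Mapk3*. In the p38 arm, stress and cytokines act through other kinases on MKK3 and MKK6, the products of *Map2k3* and *Map2k6*, which activate p38 alpha, encoded by *Mapk14*, and p38 gamma, encoded by *Mapk12* and abundant in skeletal muscle. The arm is known in muscle for its part in myoblast differentiation and in the response to exercise. These kinases are switched by phosphorylation, which arrays do not measure, and all values here are transcript levels in bulk tissue, where fewer cells of a type and less RNA per cell cannot be told apart.

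The labels were checked on *Eif6* itself, whose brighter probe gave log2 ratios of *Eif6*+/- over WT of −0.97, −1.15, −0.89 and −1.06 on gastrocnemius arrays 1 to 4 and −1.22, −1.03, −0.95 and −0.80 on TA arrays 1 to 4. The second probe of *Eif6* lay between −1.32 and −0.995 in gastrocnemius and between −1.21 and −1.04 in TA. Both probes were thus lower in the *Eif6*+/- channel on all 8 arrays, and in neither muscle did the channels overlap. The means of the brighter probe were −1.02 ± 0.11 (SD, n = 4, adjusted p = 0.0241) and −0.999 ± 0.17 (SD, n = 4, adjusted p = 0.0109). Muscle was checked on *Acta1*, the skeletal actin, whose mean log2 intensity was 17.3, and on the other genes of a list of 10 muscle fibre genes, all of them above background in both channels on all 8 arrays.

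A probe was called when its limma p, adjusted by Benjamini-Hochberg over every probe tested in that muscle, was under 0.1. In gastrocnemius 5 of the 12 probes of the pathway genes were called lower in *Eif6*+/- muscle and 0 higher, against 5.68% lower and 8.08% higher among all 23802 probes tested. In TA 4 of the 12 were called lower and 0 higher, against 7.52% lower and 7.68% higher among all 23391 probes. The called probes belonged to *Mapk3* and *Map2k2*, both probes of each in both muscles, and to *Map2k3* in gastrocnemius. The 8 genes were chosen with earlier results of these data known, so these counts describe them and are no test of the pathway. Counted once per gene by the brightest probe, 3 of 8 genes fell in gastrocnemius, where 5.53% of 12609 genes were lower and 9.85% higher. In TA 2 of 8 genes fell, where 7.29% of 12381 genes were lower and 8.98% higher. The median log2 ratio over the 12 probes was −0.19 in each muscle, beside 0.014 over all probes in gastrocnemius and 0.0022 in TA, and 10 of the 12 had a mean below 0 in each muscle. At an unadjusted p under 0.05 the counts were 5 of 12 in gastrocnemius and 7 of 12 in TA, beside 6268 of 23802 and 6443 of 23391 over all probes.

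How many probes passed this threshold changed with single arrays left out. Without gastrocnemius array 3 or array 4, limma called 0 probes of any gene, *Eif6* included, with 4204 and 4449 probes at an unadjusted p under 0.05, beside 3275 calls and 6268 such probes with all 4 arrays. Without gastrocnemius array 1 there were 2956 calls, with the same 5 of the 12 called. Without gastrocnemius array 2 there were 2188 calls, with 2 of the 12 called. Without TA array 1 the calls over all probes went from 3555 to 113, among them 0 of the 12, although *Eif6* was still called. Without TA array 2 or array 3 the totals were 896 and 1933, with 2 and 3 of the 12 called. The mean ratios of *Mapk3*, *Map2k2* and *Map2k3* were below 0 whichever array was left out.

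**Figure D1:**
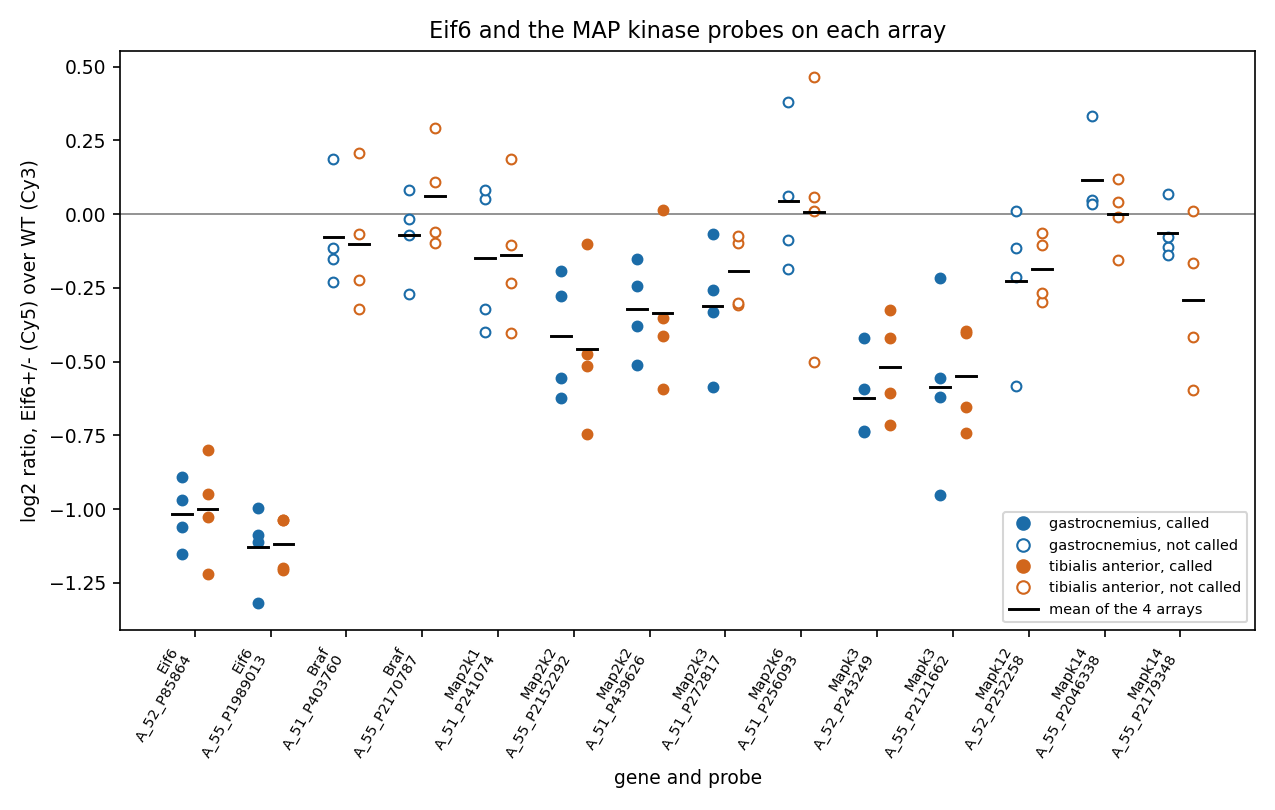
Log2 ratio of *Eif6*+/- over WT on each array (points) and the mean of the 4 arrays of a muscle (bars) for the *Eif6* probes and the 12 probes of the pathway genes, filled where the probe was called. Both *Mapk3* probes lie below 0 on all 8 arrays, from −0.95 to −0.22, while *Map2k6* spreads from −0.50 to 0.46.

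*Braf*, the Raf kinase at the head of the ERK arm, gave no call. Its brighter probe had log2 ratios of 0.19, −0.12, −0.23 and −0.15 in gastrocnemius and −0.22, −0.32, 0.21 and −0.07 in TA. The values lay on both sides of 0 in each muscle, with means of −0.08 ± 0.18 (SD, n = 4, adjusted p = 0.617) and −0.10 ± 0.23 (SD, n = 4, adjusted p = 0.518), which with 1 array left out ran from −0.17 to −0.03 and from −0.20 to −0.03. The second *Braf* probe was dim, with WT signal well above background on 3 of 4 gastrocnemius arrays and 1 of 4 TA arrays. It had means of −0.07 and 0.06. The gastrocnemius value was −0.20 with Agilent's processed signals and −0.0022 without array 2, and the TA value changed sign without TA array 4, to −0.017, and was 0.63 with Agilent's processed signals (adjusted p = 0.341).

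Of the kinases that phosphorylate ERK, *Map2k1* and *Map2k2* differed in outcome. *Map2k1*, which encodes MEK1, had ratios of 0.05, −0.32, −0.40 and 0.08 in gastrocnemius and −0.40, −0.10, −0.24 and 0.19 in TA. These again fell on both sides of 0, with means of −0.15 ± 0.25 (SD, n = 4, adjusted p = 0.407) and −0.14 ± 0.25 (SD, n = 4, adjusted p = 0.389). With 1 array left out the means ran from −0.22 to −0.06 and from −0.25 to −0.05.

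*Map2k2*, which encodes MEK2, fell in both muscles. Its brighter probe had ratios of −0.19, −0.63, −0.56 and −0.28 in gastrocnemius and −0.75, −0.47, −0.51 and −0.10 in TA, below 0 on all 8 arrays. The ratio was nearest to 0 on gastrocnemius array 1 and TA array 4 and furthest on gastrocnemius array 2 and TA array 1. The mean was −0.41 ± 0.21 (SD, n = 4, adjusted p = 0.0539) in gastrocnemius, where transcript fell by 24.9%, and −0.46 ± 0.27 (SD, n = 4, adjusted p = 0.0417) in TA, where it fell by 27.2%. The normalized log2 intensities were 11.96, 12.57, 12.37 and 12.08 in WT gastrocnemius and 11.77, 11.94, 11.82 and 11.80 in *Eif6*+/- gastrocnemius, so that the ranges did not overlap. In TA the WT values were 12.29, 12.01, 11.97 and 11.73 and the *Eif6*+/- values 11.55, 11.54, 11.45 and 11.63, again without overlap. The second probe of *Map2k2* had ratios of −0.24, −0.51, −0.38 and −0.15 in gastrocnemius and −0.59, −0.35, −0.41 and 0.01 in TA. It was below 0 on 7 of 8 arrays, with means of −0.32 ± 0.16 (SD, n = 4, adjusted p = 0.0684) and −0.34 ± 0.25 (SD, n = 4, adjusted p = 0.0773). The call on the brighter probe was lost without gastrocnemius array 2, 3 or 4, where the adjusted p was at most 0.193 and the mean between −0.49 and −0.34 whichever array was left out, and without TA array 1 or 2, at most 0.196. It was also lost in both muscles with Agilent's processed signals, and over all alternatives the adjusted p was 0.0487 to 0.193 and 0.0296 to 0.196. The call on the second probe was lost without the same arrays and without TA array 3, with an adjusted p of at most 0.220 and 0.298, and in both muscles with normexp offset 0 and with Agilent's processed signals. At a threshold of 0.05 it was lost in both muscles as well, and that on the brighter probe in gastrocnemius.

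*Map2k3*, which encodes the p38 activator MKK3, fell in gastrocnemius by the narrowest margin of the called probes. Its ratios were −0.07, −0.59, −0.33 and −0.26 in gastrocnemius and −0.31, −0.10, −0.30 and −0.07 in TA, below 0 on all 8 arrays. The WT log2 intensities in gastrocnemius were 10.19 to 10.75 and those of *Eif6*+/- 10.02 to 10.17, and in TA they were 10.08 to 10.31 and 9.80 to 10.04, so the ranges did not overlap in either muscle. The means were −0.31 ± 0.21 (SD, n = 4, adjusted p = 0.0990) and −0.19 ± 0.13 (SD, n = 4, adjusted p = 0.139). The gastrocnemius call was lost under 10 of 15 alternatives, among them leaving out array 2, 3 or 4. Over all 15 the adjusted p lay between 0.0715 and 0.269 and the mean between −0.39 and −0.22. *Map2k6*, which encodes the sister kinase MKK6, had ratios of 0.38, −0.09, 0.06 and −0.19 in gastrocnemius and −0.50, 0.06, 0.01 and 0.46 in TA. No other of the 8 genes spread as widely in TA, and the means of 0.04 ± 0.25 (SD, n = 4, adjusted p = 0.825) and 0.0084 ± 0.40 (SD, n = 4, adjusted p = 0.975) changed sign with single arrays left out. They were −0.07 without gastrocnemius array 1 and 0.12 without array 4, and in TA −0.0084 without array 2, −0.14 without array 4 and 0.18 without array 1.

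Since *Map2k2* and *Map2k3* were the kinase kinases among the 8 genes that fell, the 250 bases before their transcription starts are shown, from RefSeq on build GRCm38.p6, 5′ to 3′ on the strand of the gene, with matches to the GC box GGGCGG on either strand in capitals. *Map2k2* lies at chr10:81105665-81105914 on the + strand and *Map2k3* at chr11:60931804-60932053 on the + strand.
Map2k2: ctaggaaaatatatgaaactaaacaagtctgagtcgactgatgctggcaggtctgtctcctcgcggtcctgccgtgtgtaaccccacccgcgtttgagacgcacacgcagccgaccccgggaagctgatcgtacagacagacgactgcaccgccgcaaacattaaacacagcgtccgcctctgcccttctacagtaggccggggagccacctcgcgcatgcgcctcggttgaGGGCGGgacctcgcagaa
Map2k3: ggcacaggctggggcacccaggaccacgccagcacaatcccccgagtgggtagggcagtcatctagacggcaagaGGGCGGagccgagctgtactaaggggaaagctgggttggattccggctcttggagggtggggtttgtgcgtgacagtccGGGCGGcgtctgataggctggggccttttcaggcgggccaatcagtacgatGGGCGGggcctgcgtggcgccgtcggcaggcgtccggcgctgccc
The *Map2k2* window held 1 GC box and the *Map2k3* window 3. Of the 8 genes, 7 had entries in the set of windows used, with 10 windows, and *Mapk3* had none in that set. The GC box was in 7 of the 10 windows and in 32.7% of all 32851 mouse windows, and also in windows of *Map2k1*, *Map2k6*, *Mapk12*, *Mapk14* and *Braf*, which were not called. The AP-1 letters TGANTCA were in 1 of the 10, of *Map2k6* (6.75% of all windows), the ETS letters CCGGAAG in 0 of the 10 (6.91%) and the CRE letters TGACGTCA in 1, of *Braf* (1.55%). A match describes letters only and says nothing of binding.

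Of the MAP kinases, *Mapk3*, which encodes ERK1, was the gene that fell furthest among the 8. Its brighter probe had ratios of −0.42, −0.74, −0.74 and −0.59 in gastrocnemius and −0.71, −0.61, −0.33 and −0.42 in TA. The transcript fell by 35.0% in gastrocnemius, with a mean of −0.62 ± 0.15 (SD, n = 4, adjusted p = 0.0287), and fell by 30.1% in TA, with a mean of −0.52 ± 0.18 (SD, n = 4, adjusted p = 0.0201). In gastrocnemius the WT log2 intensities were 9.89, 10.35, 10.20 and 10.19 and those of *Eif6*+/- 9.47, 9.62, 9.46 and 9.60. In TA they were 10.07, 9.96, 9.68 and 9.84 in WT and 9.35, 9.35, 9.35 and 9.42 in *Eif6*+/-. The lowest WT value lay above the highest *Eif6*+/- value in each muscle, and the *Eif6*+/- values stood closer together than the WT values, with an SD of 0.035 against 0.17 in TA. The second *Mapk3* probe had ratios of −0.22, −0.95, −0.62 and −0.56 in gastrocnemius and −0.74, −0.65, −0.40 and −0.40 in TA, with means of −0.59 ± 0.30 (SD, n = 4, adjusted p = 0.0424) and −0.55 ± 0.18 (SD, n = 4, adjusted p = 0.0171). Both probes were called in both muscles under all alternatives apart from leaving out gastrocnemius array 3 or 4, where the adjusted p was at most 0.169, or TA array 1, where it was at most 0.123.

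**Figure D2:**
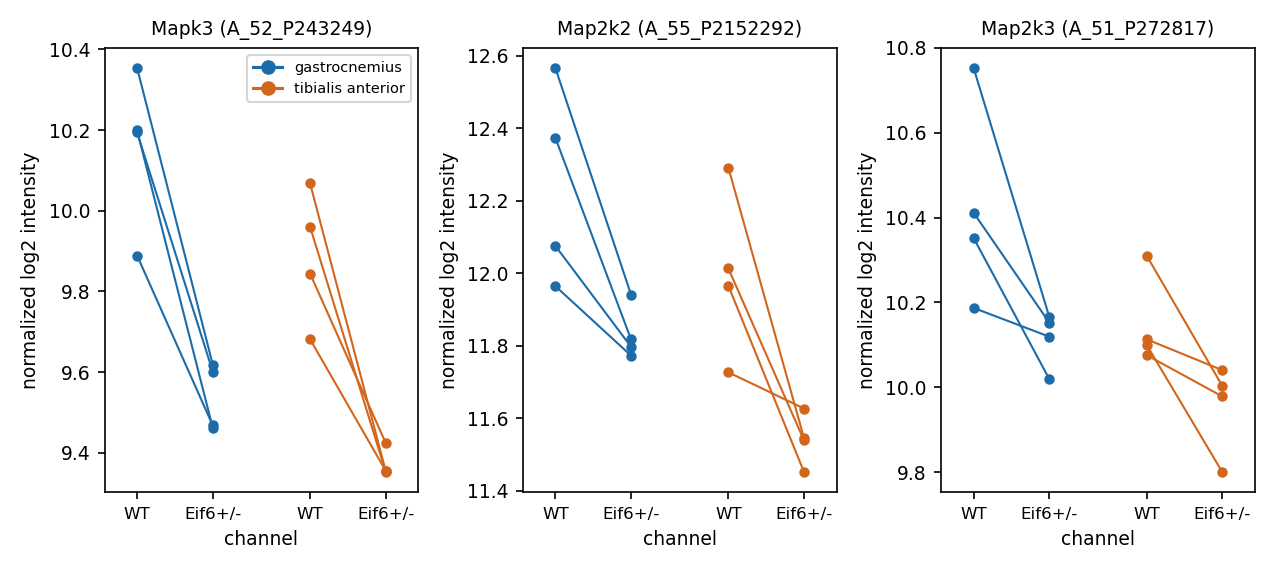
Normalized log2 intensity of the brightest probe of *Mapk3*, *Map2k2* and *Map2k3* in the WT and the *Eif6*+/- channel, with a line for each array. For *Mapk3* the *Eif6*+/- values lie between 9.46 and 9.62 in gastrocnemius and between 9.35 and 9.42 in TA, below every WT value of the same muscle.

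**Figure D3:**
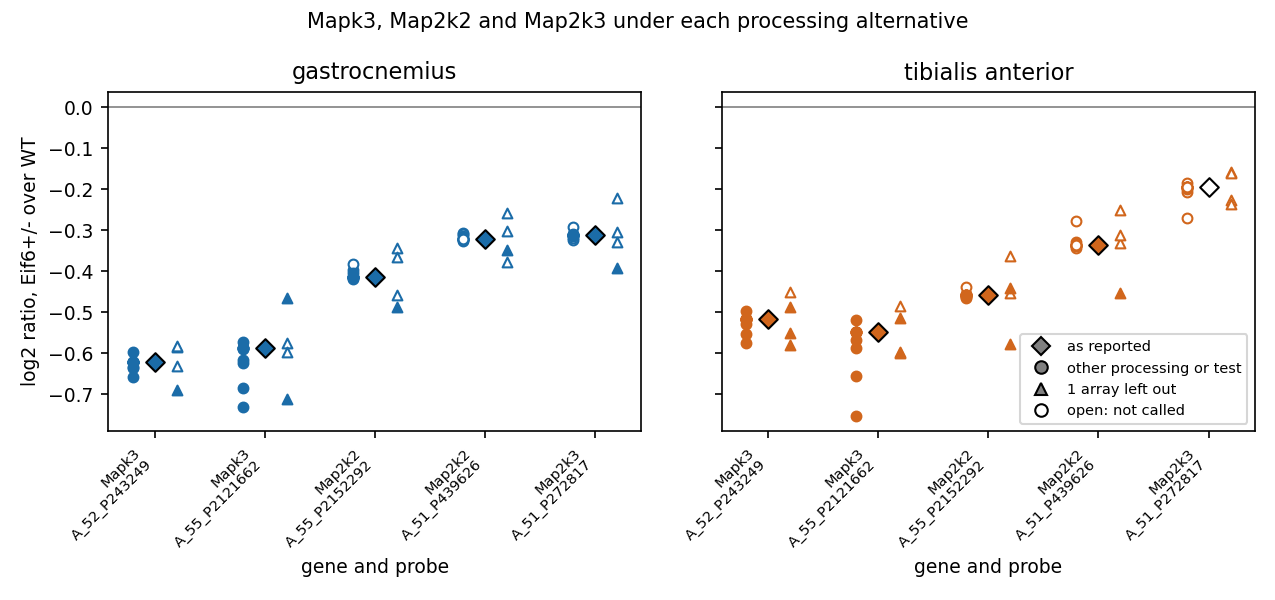
Log2 ratio of *Mapk3*, *Map2k2* and *Map2k3* probes as reported (diamonds), under other processing or tests (circles) and with 1 array left out (triangles), open where not called. All values lie below 0, from −0.75 for the second *Mapk3* probe in TA to −0.16 for *Map2k3* in TA.

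*Mapk14*, which encodes p38 alpha, had 2 probes that differed. The brighter had ratios of 0.05, 0.33, 0.05 and 0.04 in gastrocnemius and −0.15, 0.12, −0.01 and 0.04 in TA, with means of 0.12 ± 0.14 (SD, n = 4, adjusted p = 0.408) and −0.00095 ± 0.12 (SD, n = 4, adjusted p = 0.995), and the TA mean was 0.07 with Agilent's processed signals, 0.05 without TA array 1 and 0.0022 without TA array 3. The gastrocnemius mean was 0.23 with Agilent's processed signals and 0.04 without array 2. The second had ratios of −0.11, −0.14, −0.08 and 0.07 in gastrocnemius and −0.60, −0.17, −0.42 and 0.01 in TA, with means of −0.07 ± 0.09 (SD, n = 4, adjusted p = 0.608) and −0.29 ± 0.27 (SD, n = 4, adjusted p = 0.114). That TA value passed the threshold without TA array 4, the array where it was nearest to 0, and with SAM. The means of this probe were −0.24 and −0.51 with Agilent's processed signals, and −0.04 without gastrocnemius array 2, −0.11 without array 4 of that muscle and −0.19 without TA array 1.

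*Mapk12*, which encodes p38 gamma, had ratios of 0.01, −0.58, −0.11 and −0.21 in gastrocnemius and −0.30, −0.27, −0.11 and −0.07 in TA. It was below 0 on 7 of 8 arrays, with means of −0.23 ± 0.26 (SD, n = 4, adjusted p = 0.227) and −0.18 ± 0.12 (SD, n = 4, adjusted p = 0.150), neither called, and the gastrocnemius mean was −0.11 without array 2. *Mapk11*, which encodes p38 beta, had ratios of 0.10, 0.21, 0.42 and −0.08 in gastrocnemius and −0.20, −0.10, −0.19 and −0.07 in TA, with means of 0.16 (adjusted p = 0.315) and −0.14 (adjusted p = 0.223), which were 0.08 without gastrocnemius array 3 and −0.23 with Agilent's processed signals.

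The median log2 ratio of the 12 probes moved from array to array. It was −0.07, −0.42, −0.28 and −0.17 on gastrocnemius arrays 1 to 4 and −0.45, −0.22, −0.27 and −0.03 on TA arrays 1 to 4, while the median over all probes stayed between −0.02 and 0.04. Gastrocnemius array 2 held the lowest value of its muscle for 7 of the 12 probes, but the highest for the brighter *Mapk14* probe, and TA array 1 held the lowest for 11 of the 12. On TA array 4, 6 of the 12 were below 0, and on TA array 1 all 12 were. The spread lay mostly in the WT channel. Over the 4 gastrocnemius arrays the median SD of the 12 probes was 0.216 in WT and 0.0754 in *Eif6*+/-, beside 0.141 and 0.106 over all probes, and in TA it was 0.181 and 0.0770, beside 0.124 and 0.108. The WT SD was the larger for 10 of 12 probes in gastrocnemius and 12 of 12 in TA, beside 66.9% and 58.2% of all probes. Since WT and Cy3 went together on every array, a spread of the WT mice and a spread of the dye cannot be told apart.

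Over the 8 arrays the log2 ratio of the brightest *Braf* probe had a Pearson r of 0.799 with that of *Mapk3*, and the brightest probes of *Mapk12*, *Map2k2*, *Map2k1*, *Map2k6* and *Map2k3* had r of 0.672, 0.639, 0.612, 0.599 and 0.577. The median r with *Mapk3* was −0.0195 over 12199 other genes, of which 2.27% had an r at least that of *Braf* and 11.1% at least that of *Map2k3*, and *Eif6* had an r of 0.570. *Mapk14* had an r of −0.235 and *Mapk11* −0.459. Among 12200 genes tested in both muscles, the highest r with *Mapk3* were 0.963 for *Selenon*, which encodes a selenoprotein of the sarcoplasmic reticulum, 0.958 for *Aplp2*, 0.957 for *Eif4g2*, a translation initiation factor, 0.954 for *Ifitm2* and 0.951 for *Tmem87b*. These describe likeness of profile over 8 arrays of both muscles that share the dye layout. Of these genes *Ifitm2* alone was called, in gastrocnemius, at −0.51 (adjusted p = 0.0495), and *Aplp2* and *Tmem87b* had the sign of *Mapk3* on 2 of 8 arrays each.

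Whether the genotype difference itself differed between the muscles was tested as gastrocnemius minus TA over all 8 arrays. Limma called 0 of 22765 probes (0%), with 1734 at an unadjusted p under 0.05 and a lowest adjusted p of 0.270. Among the 12 probes 0 were called, 0 had an unadjusted p under 0.05 and the lowest adjusted p was 0.684. The differences were −0.10 (SE 0.117) for the brighter *Mapk3* probe, 0.05 (SE 0.150) for that of *Map2k2* and −0.12 (SE 0.122) for *Map2k3*, each smaller than its error. The call of *Map2k3* in gastrocnemius and not in TA is therefore not a difference between the muscles that this test showed. The difference for *Mapk11* was 0.30 (SE 0.114, adjusted p = 0.636).

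In the WT channel alone, gastrocnemius was set against TA to see where the pathway genes are expressed. Of 21519 probes tested, 20.5% were called, and 0 of 11 probes of the 8 genes were, the dim *Braf* probe not being tested. *Mapk3* was 10.16 ± 0.19 (SD, n = 4) in WT gastrocnemius and 9.89 ± 0.17 (SD, n = 4) in WT TA, a log2 difference of 0.27 (adjusted p = 0.156), and *Map2k3* was 10.43 ± 0.24 (SD, n = 4) and 10.15 ± 0.11 (SD, n = 4), a difference of 0.28 (adjusted p = 0.155). The values of the muscles overlapped for both genes. With Agilent's processed signals these differences were 0.48 and 0.43, and that of *Map2k3* was 0.17 without gastrocnemius array 2. Agilent's processed signals moved the median over all probes in this comparison to 0.21, which also holds for the *Mapk11* value below. *Mapk3* and *Map2k3* passed without gastrocnemius array 1, where the lowest adjusted p of the 11 was 0.0660, and *Mapk12* passed without gastrocnemius array 2, at 0.0942. *Mapk11* was lower in WT gastrocnemius, at 7.09 ± 0.12 (SD, n = 4) against 7.41 ± 0.04 (SD, n = 4), a difference of −0.32 (adjusted p = 0.0320), and this call was lost with loess alone, at −0.20, and with Agilent's processed signals, at −0.12 (adjusted p 0.0250 to 0.678 over 16 alternatives), and the difference was −0.51 with normexp offset 0. Marker genes differed in the same comparison, and their part in it was not tested. In WT gastrocnemius 5 of 6 slow fibre genes were called higher, 4 of 4 fat cell genes tested, 4 of 5 fibroblast genes, 1 of 5 endothelial genes and 1 of 4 nerve genes, and of 10 muscle fibre genes 1 was higher and 2 were lower. The muscle fibre gene called higher was *Myh7*, which is also counted among the slow fibre genes. Of the leukocyte, red blood cell and satellite cell genes 0 of 4, 0 of 5 and 0 of 2 tested were called. The log2 summed intensity of the slow fibre genes was 13.78, 15.97, 15.30 and 17.21 on the WT gastrocnemius arrays and 13.53, 15.07, 13.30 and 15.21 on those of WT TA. The fat cell genes, *Cfd* the brightest, had sums of 14.47, 14.21, 13.59 and 15.65 against 11.40, 10.79, 11.48 and 11.56, and the fibroblast genes 16.74 to 18.10 against 15.22 to 16.49.

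The 8 genes were then set in a list of 117 pathway genes, each counted by its brightest probe. In gastrocnemius 15 of 109 tested rose and 14 fell, with a median log2 ratio of 0.015, and in TA 12 of 108 rose and 10 fell, with a median of 0.022, beside medians of 0.020 and 0.019 over all genes, the 9.85% and 5.53% of genes higher and lower in gastrocnemius, and 8.98% and 7.29% in TA. Without the 8 genes the counts were 15 up and 11 down of 101 in gastrocnemius and 12 up and 8 down of 100 in TA. The list thus held calls in both directions, and all the calls among the 8 genes were downward. Both were chosen with earlier results of these data known, so the contrast is a description only. As for every gastrocnemius call, those named below were lost without array 3 or 4 of that muscle. Of the 20 genes called in TA beside the 8, 0 kept the call without TA array 1, 8 without array 2, 9 without array 3 and 14 without array 4. Of the 26 called in gastrocnemius beside the 8, 16 kept the call with normexp offset 0 and 10 with Agilent's processed signals, and in TA 9 and 7 of the 20 did, none with a changed sign. The calls lost most often over 15 alternatives were those of *Map3k6* (9) and *Map2k7*, *Dusp26*, *Spry1* and *Atf2* (7 each) in gastrocnemius and of *Ptpn11* (11), *Dusp3* (8) and *Nras*, *Dusp10* and *Ppp2ca* (7 each) in TA.

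**Figure D4:**
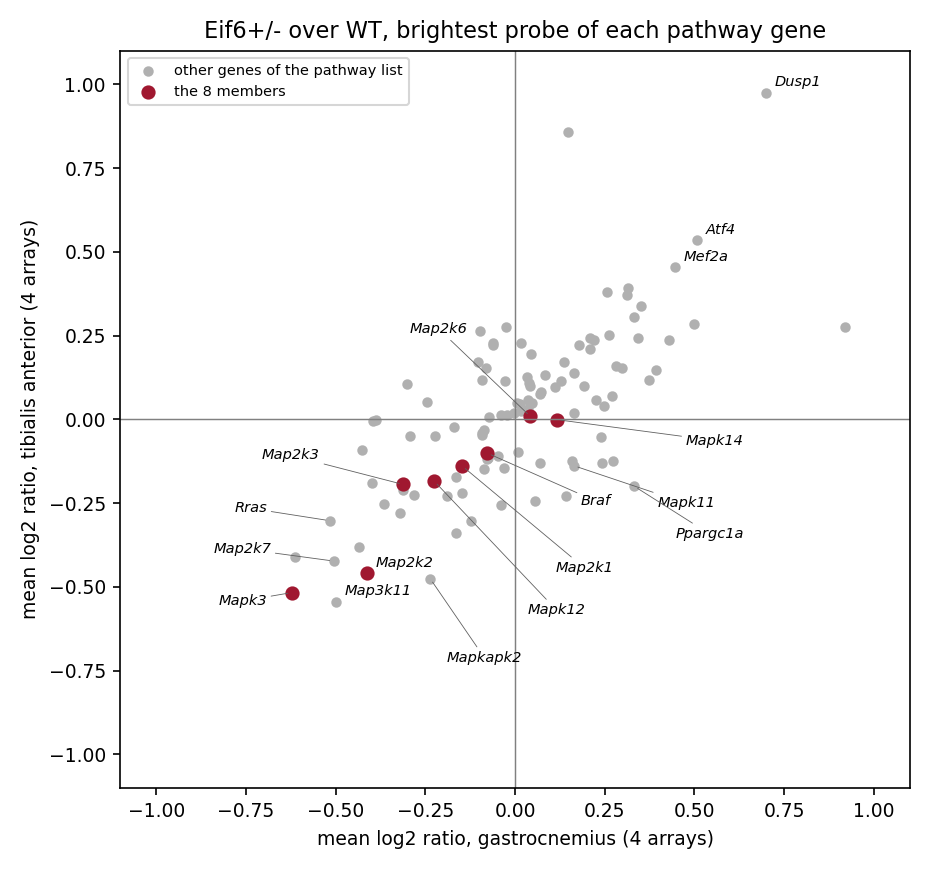
Mean log2 ratio of *Eif6*+/- over WT in gastrocnemius (horizontal) and TA (vertical), 4 arrays each, for the brightest probe of each pathway gene, with the 8 genes in red. *Mapk3* lies at −0.62 and −0.52, *Map2k2* at −0.41 and −0.46 and *Dusp1* at 0.70 and 0.97.

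Upstream of Ras, 2 of 15 receptors and adaptors rose and 1 fell in gastrocnemius, and 2 rose and 0 fell in TA. Over all genes 9.85% were higher and 5.53% lower in gastrocnemius, and 8.98% and 7.29% in TA. The counts per group here and below are small and were not tested against these shares. *Ptpn11*, the phosphatase SHP2 that helps receptors activate Ras, rose by 0.43 (adjusted p = 0.0438) and 0.24 (adjusted p = 0.0990), and *Sos2*, a Ras exchange factor, rose in gastrocnemius by 0.34 (adjusted p = 0.0713). *Rasa1*, which turns Ras off, rose in TA by 0.30 (adjusted p = 0.0397; 0.47 with Agilent's processed signals), and *Pdgfrb*, a PDGF receptor, fell by 0.43 in gastrocnemius (adjusted p = 0.0375). Of 7 Ras GTPases 2 fell in gastrocnemius and 0 rose, and 1 fell and 1 rose in TA, the latter *Nras* at 0.26 (adjusted p = 0.0919), named after its values were seen. In gastrocnemius *Nras* had a mean of −0.10 (adjusted p = 0.712), with ratios of −0.67, 0.30, −0.03 and 0.01. *Hras* fell by 0.36 in gastrocnemius (adjusted p = 0.0576), with −0.25 in TA (adjusted p = 0.105), and *Rras* fell by 0.52 (adjusted p = 0.0287) and 0.30 (adjusted p = 0.0736). Among 6 other Raf kinases and scaffolds 1 fell in gastrocnemius, the scaffold *Iqgap1*, by 0.40 (adjusted p = 0.0696), and none was called in TA, where its mean of −0.0053 turned to 0.04 with loess alone.

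Of 17 kinases and partners that feed the stress arm, 3 rose and 1 fell in gastrocnemius and 2 rose and 2 fell in TA. *Map3k11*, a mixed lineage kinase, fell by 0.50 (adjusted p = 0.0467) and 0.54 (adjusted p = 0.0119), below 0 on all 8 arrays, with −0.86 in TA with Agilent's processed signals. *Map3k1* fell by 0.30 in TA (adjusted p = 0.0473), *Map3k2* rose by 0.26 (adjusted p = 0.0785) and 0.25 (adjusted p = 0.0846), or 0.41 and 0.44 with Agilent's processed signals, and *Gadd45g*, an activator of a stress kinase kinase kinase, rose by 0.32 (adjusted p = 0.0510) and 0.39 (adjusted p = 0.0425). *Map3k6*, named after its values were seen, rose in gastrocnemius by 0.28 (adjusted p = 0.0969). Of the 3 remaining MAP kinase kinases, *Map2k7*, which activates JNK, fell by 0.51 (adjusted p = 0.0965) and 0.42 (adjusted p = 0.0479). Its ratios were −0.04, −1.06, −0.57 and −0.35 in gastrocnemius and −0.80, −0.25, −0.36 and −0.27 in TA, and the means were −0.32 without gastrocnemius array 2 and −0.77 in TA with Agilent's processed signals. Of 7 other MAP kinases 1 fell in gastrocnemius, the atypical kinase *Mapk6*, by 0.39 (adjusted p = 0.0530), and none was called in TA, where its mean was −0.0020 and turned to 0.026 with loess alone. Other *Mapk6* probes had −0.27 (adjusted p = 0.0757) and −0.09 in gastrocnemius, the former −0.69 with normexp offset 0 and −1.02 with Agilent's processed signals. The former was dim, with a mean log2 intensity of 6.36, and was not tested in TA or under the strict filter. Its call therefore adds no support to a fall of *Mapk6*.

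Downstream of ERK and p38, 1 of 10 kinases rose and 2 fell in gastrocnemius and 0 rose and 1 fell in TA. *Mapkapk2*, the substrate kinase MK2 of p38, fell by 0.48 in TA (adjusted p = 0.0172) and had −0.24 in gastrocnemius (adjusted p = 0.289). The latter was called without gastrocnemius array 1, at −0.38 (adjusted p = 0.0959), and was −0.10 without array 2. *Mapkapk3* rose by 0.27 in gastrocnemius (adjusted p = 0.0705), and its call was lost with Agilent's processed signals, at 0.17. *Rps6ka3*, which encodes the ERK target RSK2, fell by 0.28 in gastrocnemius (adjusted p = 0.0622), with 0.08 on its second probe, and *Rps6ka4*, which encodes MSK2, fell by 0.40 (adjusted p = 0.0747).

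Of the phosphatases and inhibitors that turn MAP kinases off, 5 of 16 rose and 0 fell in gastrocnemius, and 4 of 15 rose and 2 fell in TA. The shares over all genes were 9.85% higher and 5.53% lower in gastrocnemius and 8.98% and 7.29% in TA. *Dusp1*, a nuclear phosphatase of p38 and JNK, had ratios of 1.09, 0.18, 0.59 and 0.94 in gastrocnemius and 1.58, 0.23, 0.66 and 1.44 in TA, above 0 on all 8 arrays. It rose by 0.70 ± 0.40 (SD, n = 4, adjusted p = 0.0461) and 0.97 ± 0.64 (SD, n = 4, adjusted p = 0.0355). *Dusp10* rose by 0.50 (adjusted p = 0.0663) and 0.28 (adjusted p = 0.0771), *Spry1*, an inhibitor of receptor signalling to ERK, rose by 0.35 (adjusted p = 0.0928) and 0.34 (adjusted p = 0.0687), and *Dusp3* rose in TA by 0.24 (adjusted p = 0.0797). *Dusp26* and *Ppm1d*, named after their values were seen, rose in gastrocnemius by 0.92 (adjusted p = 0.0881) and 0.25 (adjusted p = 0.0919), the latter 0.38 with normexp offset 0 and 0.43 with Agilent's processed signals. The gastrocnemius ratios of *Dusp26* were 1.41, −0.19, 1.64 and 0.82, and its TA mean was 0.27 (adjusted p = 0.208). Its difference of WT gastrocnemius minus WT TA was −1.94 (limma adjusted p = 0.0049). In TA *Dusp8* fell by 0.34 (adjusted p = 0.0637) and *Ppp2ca*, the catalytic subunit of PP2A, fell by 0.26 (adjusted p = 0.0718). In gastrocnemius their means of −0.16 and −0.04 changed sign without array 2, to 0.10 and 0.07, and were −0.33 and −0.16 without array 1.

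Among 20 transcription factors and targets 4 rose and 2 fell in gastrocnemius and 3 rose and 1 fell in TA. *Atf4*, the factor of the integrated stress response, rose by 0.51 (adjusted p = 0.0287) and 0.53 (adjusted p = 0.0297), while its second probe had 0.04 and −0.11. The MEF2 factors that were called, substrates of p38 in muscle, were *Mef2a* and *Mef2d*. *Mef2a* rose by 0.45 (adjusted p = 0.0512) and 0.46 (adjusted p = 0.0153), with 0.11 and 0.18 on its second probe, and *Mef2d* fell by 0.43 (adjusted p = 0.0629) and 0.38 (adjusted p = 0.0601), with a second probe also called lower in both muscles, at −0.42 and −0.31, the former −0.28 without gastrocnemius array 2. *Atf2*, a substrate of p38, rose in gastrocnemius by 0.30 (adjusted p = 0.0663), with 0.04 and −0.15 on other probes. *Elk1*, a substrate of ERK, rose in TA by 0.37 (adjusted p = 0.0846) on a probe with a mean log2 intensity of 16.28, its other probe, at 6.30, being too dim to test. The *Elk1* call was lost under 6 of 15 alternatives, among them Agilent's processed signals, at 0.14 (adjusted p = 0.526). *Myc* fell in gastrocnemius by 0.30 (adjusted p = 0.0908), a call lost under 5 of 15, and was −0.49 with normexp offset 0 and −0.64 with Agilent's processed signals. In TA the mean of *Myc* was 0.10 (adjusted p = 0.444), and with 1 TA array left out it ran from 0.019 to 0.15. *Ppargc1a*, the coactivator of mitochondrial genes, rose in gastrocnemius by 0.33 (adjusted p = 0.0530) and had −0.20 in TA (adjusted p = 0.167; −0.11 without TA array 3). The immediate early genes *Fos*, *Egr1* and *Jun*, transcribed when ERK is active, were not called and are named after their values were seen, with means of 0.15, −0.61 and 0.22 in gastrocnemius and 0.86, −0.41 and 0.24 in TA. Each had arrays on both sides of 0 in each muscle, *Fos* at 0.96, −1.19, −0.36 and 1.18 in gastrocnemius and 2.64, −1.73, 0.19 and 2.34 in TA, and *Egr1* at 1.28, −2.46, −0.59 and 0.13 in TA. With 1 array left out the mean of *Fos* ran from −0.20 to 0.59 in gastrocnemius and from 0.26 to 1.72 in TA, and in the same order that of *Egr1* from −0.86 to −0.10 and from −0.97 to 0.27, and that of *Jun* from 0.08 to 0.33 and from −0.013 to 0.50.

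Markers of other cells and of fibre types moved on some arrays beside these results, and their part in them was not tested. The called markers are named after their values were seen, and of the 15 called in TA *Myh4* and *Prx* alone kept the call without TA array 1. The summed intensity of 6 slow fibre genes, *Myl3* the brightest, gave *Eif6*+/- over WT log2 ratios of 3.24, −1.09, 0.19 and −0.19 in gastrocnemius and 0.013, −0.52, −0.06 and −1.46 in TA. Gastrocnemius array 1, where slow fibre genes stood far higher in the *Eif6*+/- channel, was also the array of that muscle with the ratio of *Mapk3* nearest to 0. Whether these are linked was not tested. In TA 3 of the 6 fell, *Tnni1*, *Tnnt1* and *Tnnc1*, and in gastrocnemius 0 of 6 were called. Of 5 red blood cell genes, *Hba-a2* the brightest, all but *Hba-a2* fell in TA, 4 of 5, and 0 were called in gastrocnemius, with summed ratios of −0.21, −1.02, −0.47 and −0.017 on the TA arrays and 0.39, −0.16, −0.36 and −0.05 on those of gastrocnemius. Of 4 nerve genes, *Pmp22* the brightest, 2 fell in TA, *Mbp* and *Prx*, with sums at −0.14, −0.56, −0.08 and −0.48, and 0 were called in gastrocnemius, at −0.31, −0.20, −0.04 and 0.24.

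Of 4 fat cell genes tested, 2 fell in gastrocnemius, *Adipoq* and *Cfd*, and 2 rose in TA, *Plin1* and *Cidec*. *Plin1* was dim in WT TA, at log2 intensities of 6.43 to 6.69, and the strict filter left it out there. Over both muscles its WT channel was well above background on 7 of 8 arrays and its *Eif6*+/- channel on 8. It thus entered the TA test through the channel where it was higher. Its call is therefore no support for a rise of fat cell genes. *Cfd* was the brightest, and the summed ratios were −0.54, −0.04, −1.05 and −1.70 in gastrocnemius and 0.42, −0.54, 1.79 and 0.22 in TA, with *Lep* near background. Fibroblast genes, *Col1a2* the brightest, had 0 of 5 called in either muscle, but their sum was −1.37 on gastrocnemius array 3 and 2.15 on TA array 3, beside 0.03, 0.04 and 0.33 and 0.24, −0.84 and −0.19 on the others. Leukocyte genes, *Itgam* the brightest, had 1 of 4 lower in gastrocnemius, *Cd74*, with sums of −0.39, −0.43, −1.28 and −0.17, and 0 of 5 called in TA, with sums of −0.013, −0.34, 0.015 and −0.022. Endothelial genes, *Vwf* the brightest, had 0 of 5 called in gastrocnemius and 1 of 5 lower in TA, *Pecam1*, with sums between −0.26 and 0.04 over the 8 arrays. Of the satellite cell genes, *Cdh15* the brightest, 0 of 2 tested were called in each muscle, with sums between −0.41 and −0.04, and *Myf5* was not above background on any array. Muscle fibre genes, *Acta1* the brightest, had 1 higher, *Myh1*, and 1 lower, *Ckm*, of 10 in gastrocnemius, and 1 higher, *Myh4*, and 2 lower, *Mb* and *Mylpf*, in TA, with sums between −0.11 and 0.32.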

How the data were processed

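Transcript levels in gastrocnemius and TA were measured on 8 two-colour arrays of 62976 spots. The authors deposited the output of Agilent Feature Extraction 10.5.1.1, with spot intensity per channel, not normalized, and local background. The authors also deposited a table of log2 ratios of Cy5 over Cy3, which was checked against loess values computed from uncorrected intensities (r from 0.999963 to 0.999996), so its scale, centring and direction are known. Its column medians were 0.0026, 0.00083, −0.0044 and 0.0037 for gastrocnemius arrays 1 to 4 and 0.0014, −0.00037, 0.0029 and 0.0021 for TA arrays 1 to 4.

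Median spot intensities were used in place of means, which these files do not hold. Intensities were corrected by normexp (offset 50), normalized by loess within arrays and quantile over 16 channels (limma 3.58.1 in R 4.3.3). Figures were drawn with Python 3.11.15 and matplotlib 3.10.9. Control and outlier spots were left out and the spots of a probe averaged. Tests in a muscle took the probes that stood well above background, in 1 channel or both, on each of its 4 arrays. The ratios were tested against 0 with lmFit and eBayes, Benjamini-Hochberg adjusted over all tested probes, at a threshold of 0.1. Checks of limma and SAM ran on simulated data, and their outcomes are not reported here. Gastrocnemius minus TA was a contrast over 8 arrays, and WT gastrocnemius minus WT TA used the Cy3 channel. Precision is limited by the 4 arrays per muscle.

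Of 55681 probes, 28685 carried an accession of RefSeq form and 27235 matched a gene. A gene was counted by its brightest probe, that of highest mean log2 intensity. Named were all probes of the 8 genes and of *Mapk11*, the called genes of the pathway list (at most 10 per direction and muscle, lowest adjusted p first), the 5 genes of highest r with *Mapk3*, and *Eif6*. The marker lists were muscle fibre, slow fibre, endothelium, fibroblast, fat cell, leukocyte, red blood cell, nerve and satellite cell. Members and lists were chosen with earlier results of these data known. Alternatives were loess or quantile alone, normexp offset 0, intensities without background correction, the deposited ratios, Agilent's processed signals, no or a strict filter, each array left out, SAM, a threshold of 0.05, 1 probe per gene and the array number as a replicate block. Polysomal RNA was not analysed here.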

Additional observations from a re-analysis of the deposited data

Results flagged for a closer look

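Among 90 groups of 4 arrays examined, 2 held an array far from the other three, which is fewer than the share of about 1 in 20 that chance gives. The brighter *Mapk14* probe was 0.33 on gastrocnemius array 2 and 0.036 to 0.049 on the others. *Spry1* was −0.027 on gastrocnemius array 2 and 0.46 to 0.49 on the others. *Ppargc1a* was higher in *Eif6*+/- on every gastrocnemius array and lower on every TA array, a difference between the muscles of 0.53, which by the limma test of the difference had an adjusted p of 0.636, and its second probe had 0.08 and 0.0028.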

How the results depend on the processing

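Over 94 single probe results and 1403 values under alternatives, 1142 kept direction and side of the threshold, 229 kept direction and lost the call, 13 kept direction and gained a call and 19 changed sign, in 8 results. Where a value below differs, the cause was not tested. The calls in gastrocnemius (3275) became 5459 with SAM, 1080 at a threshold of 0.05 and 2172 with 1 probe per gene, where fewer probes were tested, and with 1 array left out 0 to 2956. Those in TA (3555) became 2293 with normexp offset 0, 1781 with Agilent's processed signals, 5588 without a filter on dim probes, 1393 at 0.05 and 2167 with 1 probe per gene, and with 1 array left out 113 to 3538. For gastrocnemius minus TA there was 1 call with Agilent's processed signals (*Pcnx2*) and 1 without a filter (*Lrtm1*), both named after their values were seen, and 0 to 0 with 1 array left out. For WT gastrocnemius minus WT TA (4413, 37.8% higher) there were 2524 with loess alone (56.2% higher) and 2665 to 4397 with 1 array left out, and with Agilent's processed signals, which moved the median of all probes to 0.21, 87.3% were higher. With muscles of the same number paired as a replicate block the counts were 0 for gastrocnemius minus TA and 3033 for WT.

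*Mapk6* in TA was 0.026 with loess alone, 0.043 with Agilent's processed signals and 0.013 with the deposited ratios, and *Iqgap1* in TA was 0.041, 0.024 and 0.035. With Agilent's processed signals the brighter *Mapk14* probe in TA was 0.070 and the dim *Braf* probe 0.63. With 1 array left out, those of the 94 results that changed sign ran from −0.070 to 0.12 for *Map2k6*, −0.33 to 0.098 for *Dusp8* and −0.16 to 0.070 for *Ppp2ca* in gastrocnemius, and in TA from −0.14 to 0.18 for *Map2k6*, −0.041 to 0.050 for *Mapk14*, −0.081 to 0.086 for *Mapk6*, −0.13 to 0.12 for *Iqgap1* and −0.017 to 0.11 for the dim *Braf* probe. *Fos*, *Egr1* and *Jun*, whose ranges are given above, were not among the 94 results. Dim probes such as that of *Braf* are limited by signal over background, and 4 arrays per muscle limit every value.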
